A study of Mus musculus with 12 samples.

Results

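Bone marrow macrophages treated with lipopolysaccharide (LPS), the outer membrane component of Gram-negative bacteria, were compared with mock-treated cells by microarray measurement of newly made RNA. The 6 arrays were chosen by their titles, 3 of LPS-treated and 3 of unstimulated bone marrow-derived macrophages, and were 6 of the 12 arrays of the series. The other 6 arrays hold the same pair of treatments in MPI-2, a fetal liver-derived macrophage line of the same strain. Values were available for 19937 genes.

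Both bone marrow groups were C57BL/6 macrophages differentiated ex vivo from bone marrow with M-CSF (macrophage colony-stimulating factor, CSF-1), grown in DMEM with fetal calf serum. One group received mock treatment and the other R-LPS, the form of LPS that lacks the O-antigen chain. In both groups 4-thiouridine, a uridine analog that cells build into new transcripts, was present for 60 min, and the labelled RNA was biotinylated and purified. In the LPS group labelling ran from 30 to 90 min after LPS was added, so the values cover transcripts made in that window. MPI-2 cells grew in RPMI with GM-CSF and fetal calf serum, and the study's text speaks of independently established MPI lines, of which MPI-2 is 1. The titles call the arrays biological replicates but do not name separate animals or cultures, so all p-values measure the spread between these arrays.

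LPS is bound by CD14 and by the complex of TLR4 with MD-2, and is sensed through a pair of signalling arms. The arm of the adaptor MyD88 works from the plasma membrane, activates NF-kB and MAP kinases, and is known for cytokines such as TNF. The arm of the adaptor TRIF works from endosomes and activates TBK1, IKK-epsilon and IRF3, which switch on interferon-beta, and secreted interferon then induces antiviral genes through JAK kinases and STAT factors. Many fast targets of NF-kB encode inhibitors of the pathway itself.

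The arrays within each bone marrow group correlated at r = 0.975 to 0.989 over all genes, against 0.994 to 0.996 in MPI-2, and the median standard deviation of a gene was 0.176 in the mock and 0.204 in the LPS group. The interquartile range of an array was 2.78 to 2.88 in the mock group and 2.38 to 2.69 in the LPS group, with LPS 3 the lowest. All values are on the log2 scale, so a difference of 1 is a 2-fold change. A gene was taken as above background when its mean over the 12 arrays exceeded 3.36, the 95th percentile of the means of 1027 olfactory receptor genes, which macrophages are not known to use. By this measure 12030 genes (60.3%) were above background. Probes of an array differ in brightness, so levels of different genes are not compared below.

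The cells carried macrophage transcripts. Of 11 identity genes measured, 10 were above background in the mean of the 12 arrays, and Aif1, at 3.21, 3.10 and 3.22 in the mock arrays, was not. Csf1r, the receptor for M-CSF, read 9.70, 9.70 and 9.93 in the mock arrays, and Adgre1, which encodes F4/80, read 9.67, 9.86 and 9.81. Markers of 9 other cell types were also read (T, B and NK cells, neutrophils, dendritic cells, mast cells and basophils, erythroid, stromal and endothelial cells). Of 71 measured, 19 were above background in the mean of the 12 arrays, which includes MPI-2. Above it were 6 of 8 stromal markers, 0 of 8 endothelial ones and at most 3 in each other list. In these lists 2 genes rose and 2 fell with all 12 arrays in the fit, and 1 rose and 1 fell with the 6 bone marrow arrays alone. Those that passed in both fits were Cdh5, an endothelial cadherin, which read 3.12, 2.99 and 3.02 in the mock arrays and 3.72, 3.96 and 3.94 in the LPS arrays, and Cd28, a T cell costimulatory receptor, which read 3.63, 4.87 and 5.09 in the mock arrays and 2.83, 2.92 and 3.15 in the LPS arrays. Their part in the results below was not tested. In RNA pooled from many cells, fewer cells of a type and less RNA per cell cannot be told apart.

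LPS raised fewer genes than it lowered, but the rises reached further than the falls. Each gene was tested with limma, fitted on all 12 arrays as 4 group means, with Benjamini-Hochberg adjustment over 19937 genes and a threshold of 0.05. In this fit 2053 genes (10.3%) rose and 3061 (15.4%) fell. Within the genes above background 1715 (14.3%) rose and 2952 (24.5%) fell. Because the bone marrow arrays scattered more than the MPI-2 arrays, the same test was also run on the 6 bone marrow arrays alone, where 1321 (6.63%) rose and 2143 (10.7%) fell. Of these, 1320 and 2140 were also called in the 12-array fit in the same direction. Every gene said below to have risen or fallen passed in both fits. Counts of gene groups come from the 12-array fit, with the 6-array count where it differs by more than 1.5 times. They should be read against the shares of all genes above background in that fit, 14.3% for rises and 24.5% for falls.

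The split between rises and falls depended on the scaling of the arrays. After cyclic loess normalization, 2404 genes rose and 2471 fell. The median change over all genes was 0.04 as deposited and 0.01 after cyclic loess, and over the genes above background it was -0.08 as deposited. Group medians below should be read against these values.

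The largest changes were rises. In the 12-array fit 773 genes rose at least 2-fold, 261 at least 4-fold, 90 at least 8-fold, 38 at least 16-fold and 12 at least 32-fold. Falls of at least 2-fold were seen for 1050 genes, of at least 4-fold for 155, of at least 8-fold for 30 and of at least 16-fold for 4. The LPS arrays lay wholly above the mock arrays in 3102 genes (15.6%) and wholly below in 3283 (16.5%). Of the genes that rose, 243 were below the background level in the mock mean and above it in the LPS mean, and 59 of those rose at least 2-fold. Of the genes that fell, 167 went from above to below that level. Folds of genes near background are compressed by the arrays and understate the change.

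**Figure D1:**
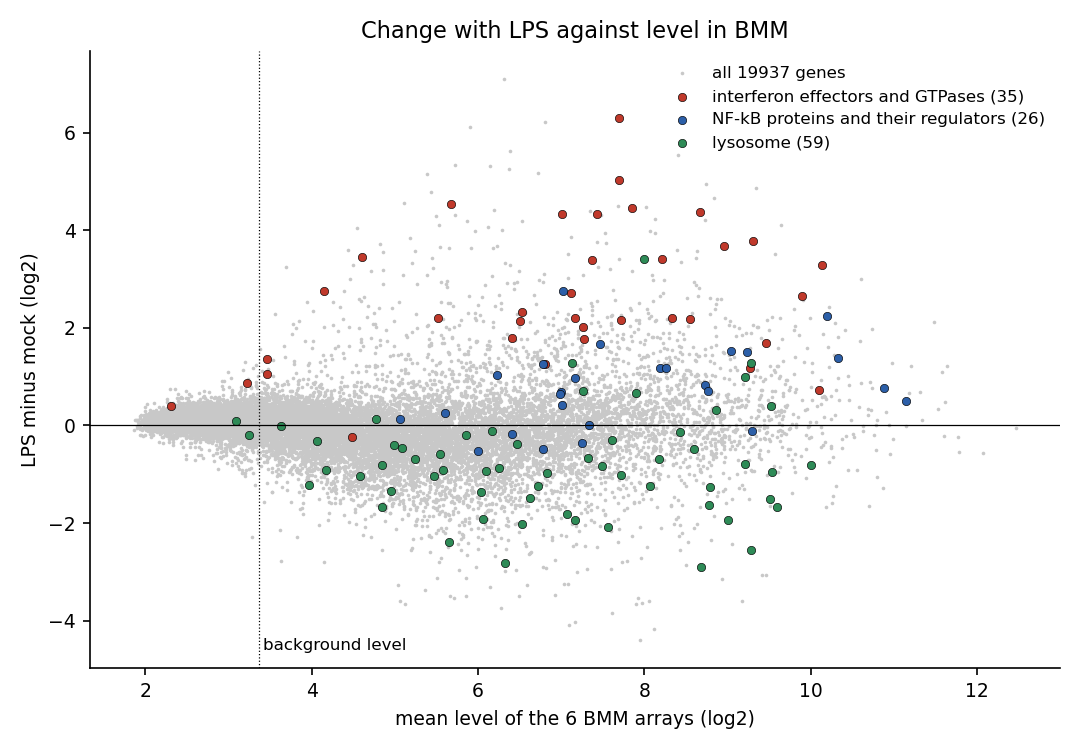
Change of each gene with LPS (LPS minus mock, log2, vertical axis) against its mean level in the 6 bone marrow arrays (log2, horizontal axis). Grey points are all 19937 genes, coloured points are 3 groups of lists (interferon effectors and GTPases, NF-kB proteins and their regulators, lysosome), and the dotted line is the background level. Rises reach beyond 6 log2 units, whereas falls stop above -5, and most of the lysosomal genes lie under 0.

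Among the genes with the largest rises were several that were near background in mock cells. Tnfsf4, which encodes OX40 ligand, a costimulatory signal for T cells, read 2.99, 2.74 and 2.68 in the mock arrays and 7.60, 8.19 and 8.12 in the LPS arrays. Cxcl11, which encodes a ligand of the chemokine receptor CXCR3, read 3.76, 3.86 and 3.61 in the mock arrays and 8.72, 9.03 and 9.25 in the LPS arrays. Saa3, an acute phase serum amyloid gene, read 4.13, 4.14 and 4.10 in the mock arrays and 9.17, 9.68 and 9.06 in the LPS arrays. In each of these genes all LPS arrays lay above all mock arrays, by more than 3 log2 units. The changes were 5.17 ± 0.16, 5.26 ± 0.14 and 5.18 ± 0.16 (± SE, n = 3 against 3). Here and below the SE is that of the limma fit on the whole series, which pools the spread of all groups. With the bone marrow arrays alone the SE of these genes was larger, at 0.19, 0.17 and 0.18. Adjusted p-values are from the fit on the whole series unless another setting is named. Mmp13, a collagenase, read 6.06, 6.47 and 6.26 in the mock arrays and 11.03, 11.29 and 11.32 in the LPS arrays. Mx2, an interferon-induced GTPase, read 5.01, 5.24 and 5.29 in the mock arrays and 10.05, 10.13 and 10.46 in the LPS arrays. Lack of overlap was required of the genes with the largest changes. Mmp13 and Mx2 had limma adjusted p = 1.39e-12 and 1.78e-12 in the fit on the whole series. With the bone marrow arrays alone, limma adjusted p was 1.22e-07 for each.

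The largest falls concerned genes that were well above background in mock cells. Arrdc3, an alpha-arrestin that helps remove receptors from the cell surface, fell by 4.40 ± 0.15. Vegfa, which encodes the angiogenic growth factor VEGF-A, read 9.74, 9.47 and 9.86 in the mock arrays and 5.79, 6.61 and 6.08 in the LPS arrays. Cxcr4, the receptor for CXCL12, read 11.01, 10.83 and 11.07 in the mock arrays and 7.45, 7.88 and 6.79 in the LPS arrays. Hgf, which encodes hepatocyte growth factor, read 6.01, 7.74 and 7.10 in the mock arrays and 2.96, 3.37 and 3.52 in the LPS arrays. The LPS arrays of these genes lay at least 2 log2 units under the lowest mock array, and Hgf came down to around the background level. Thbs1, which encodes the matrix protein thrombospondin 1, fell by 3.07 ± 0.20, and Scd2, a stearoyl-CoA desaturase, fell by 3.49 ± 0.24.

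Large falls also struck genes of many unrelated functions. H1f2, a linker histone gene, read 10.08, 9.70 and 9.81 in the mock arrays and 6.42, 6.39 and 5.95 in the LPS arrays. Sesn1, whose product restrains the growth kinase mTORC1, read 7.32, 7.53 and 7.40 in the mock arrays and 3.92, 4.01 and 3.80 in the LPS arrays. Got1, the cytosolic aspartate aminotransferase, read 9.68, 9.66 and 9.84 in the mock arrays and 6.35, 6.67 and 5.20 in the LPS arrays. LPS 3 was the lowest array of Got1, and all 3 genes lay more than 2 log2 units lower in every LPS array. The adhesion receptor gene Adgre5 (CD97) fell by 3.50 ± 0.19, Cerk, which makes ceramide phosphate, fell by 3.31 ± 0.17, Ago4, an Argonaute protein gene of the microRNA machinery, fell by 3.28 ± 0.16 and Ivns1abp fell by 3.75 ± 0.20. A second probe set of Ivns1abp, which was dimmer in the mock arrays, changed by -0.21, so its probe sets disagree. The 20 largest falls among the genes eligible to be named ran from -4.40 to -3.28 on the log2 scale. Among the largest rises, Wfdc17, a small secreted protease inhibitor family gene, rose by 4.49 ± 0.24.

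**Figure D2:**
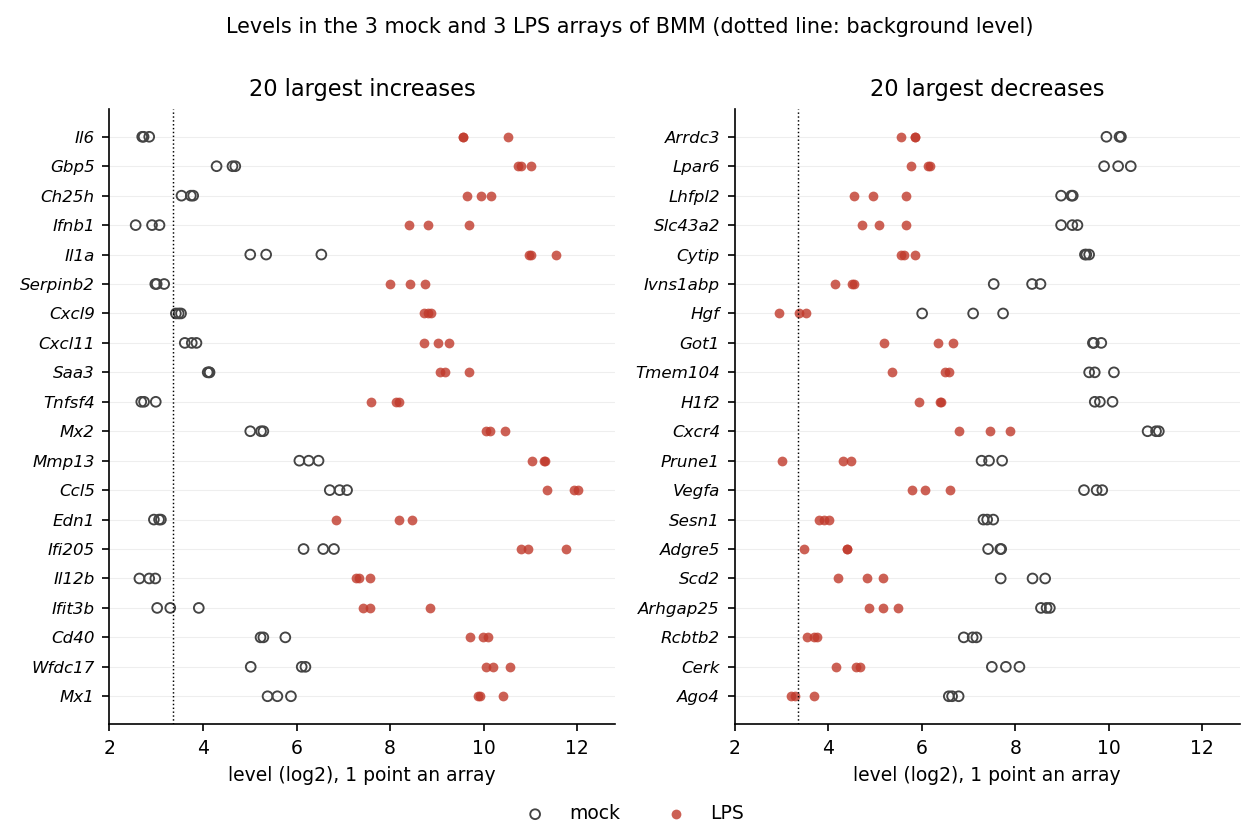
Values of the 20 genes with the largest rises and the 20 with the largest falls, in each of the 3 mock and 3 LPS bone marrow arrays (log2, horizontal axis). Mock and LPS points of a gene do not overlap in any of the 40 genes.

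LPS changed its own receptor system unevenly. Tlr4 read 6.79, 7.36 and 7.07 in the mock arrays and 6.32, 6.66 and 7.07 in the LPS arrays, so the groups overlapped, and its change of -0.39 ± 0.19 did not pass the test (limma adjusted p = 0.153). Without LPS 3 the change was -0.59 and passed (limma adjusted p = 0.0237). Ly96, which encodes MD-2, the TLR4 partner that holds the lipid part of LPS, rose by 1.80 ± 0.24. Tlr1, which pairs with TLR2 to sense bacterial lipopeptides, rose by 1.90 ± 0.12, from 6.28, 5.97 and 6.04 to 8.15, 7.89 and 7.95. Cd14, the LPS-binding coreceptor, was already at 10.29, 10.10 and 10.19 and rose by 0.53 ± 0.13 (limma adjusted p = 0.00615). That call was lost after cyclic loess (change 0.27) and after a further quantile normalization (0.10). Of 10 genes of surface Toll-like receptors and their partners, 5 rose and their median was 0.28. After cyclic loess 3 rose, and without LPS 3 1 member fell.

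Endosomal receptors, which sense nucleic acids, moved both ways. Tlr3, the receptor for double-stranded RNA, rose by 1.46 ± 0.20. Tlr9, which senses unmethylated CpG DNA, fell by 1.19 ± 0.20. Tlr13, which senses bacterial ribosomal RNA, read 8.97, 9.59 and 9.73 in the mock arrays and 8.09, 8.29 and 8.99 in the LPS arrays, with 1 LPS array inside the mock range, and fell by 0.97 ± 0.22. Cnpy3, a chaperone that folds Toll-like receptors, fell by 1.38 ± 0.15. Of 8 members of that list 2 rose and 3 fell, with a median of -0.40. Only 1 rose with the 6 arrays alone, or without mock 1 or LPS 3.

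Both signalling arms gained transcripts of positive and negative regulators. In the MyD88 arm 8 of 17 genes rose and 3 fell (median 0.36). Myd88 itself rose by 1.09 ± 0.15, from 9.56, 9.35 and 9.51 to 10.64, 10.83 and 10.22. The kinase gene Irak2, which keeps the signal going, rose by 1.03 ± 0.15, and Irak3, which encodes the inhibitory IRAK-M, by 1.28 ± 0.15. Map3k8, the kinase that links TLR4 to ERK, rose by 1.47 ± 0.11, and Peli1, a ubiquitin ligase acting on IRAK and RIP kinases, by 2.04 ± 0.15. In the TRIF arm 6 of 9 genes rose (median 0.73). Ikbke, the gene of IKK-epsilon, read 6.94, 6.76 and 6.77 in the mock arrays and 9.38, 9.52 and 9.21 in the LPS arrays, and Irf7, the factor that amplifies interferon genes, read 7.07, 6.15 and 6.79 in the mock arrays and 9.27, 9.32 and 8.97 in the LPS arrays. These groups were separated by more than 1 log2 unit, and the changes were 2.55 ± 0.13 and 2.51 ± 0.20. Without mock 2, 1 TRIF arm gene also fell. Ifnb1, the interferon-beta gene at the end of this arm, read 3.07, 2.91 and 2.56 in the mock arrays and 8.40, 8.80 and 9.69 in the LPS arrays, and Ch25h, an interferon-linked enzyme gene that makes antiviral 25-hydroxycholesterol, read 3.74, 3.54 and 3.79 in the mock arrays and 9.95, 10.15 and 9.64 in the LPS arrays. All LPS arrays of both lay above all mock arrays, with changes of 6.12 ± 0.24 and 6.22 ± 0.15.

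NF-kB genes and their inhibitors rose together. Of 10 genes of NF-kB subunits and IkB proteins 7 rose, with a median of 0.80, and 5 rose after cyclic loess. Nfkbia, which encodes IkB-alpha, the inhibitor that NF-kB itself induces, read 11.03, 10.30 and 10.15 in the mock arrays and 11.27, 11.47 and 11.05 in the LPS arrays. Mock 1 lay closest to the LPS arrays, the groups did not overlap, and the change was 0.77 ± 0.19. It no longer passed after cyclic loess (change 0.36) or a further quantile normalization (0.32). Nfkbib, the IkB-beta gene, rose by 1.53 ± 0.16, and Nfkbiz, which encodes the nuclear IkB-zeta needed for Il6 and Il12b, by 1.50 ± 0.16. Among the subunits, Nfkb2 rose by 1.17 ± 0.17 and Rela by 0.82 ± 0.14.

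Ubiquitin editors and adaptors of NF-kB signalling rose as well. Of 16 such genes 10 rose and 1 fell, with a median of 0.70. The count of falls was 2 without mock 1 and 0 without mock 2 or LPS 1, and no member fell with the 6 arrays. Tnfaip3, which encodes the brake A20, read 9.10, 8.99 and 9.15 in the mock arrays and 11.15, 11.55 and 11.25 in the LPS arrays. Traf1, an adaptor of TNF receptors, read 5.81, 5.46 and 5.63 in the mock arrays and 8.32, 8.46 and 8.42 in the LPS arrays. In both genes the lowest LPS array was 2 log2 units or more above the highest mock array. Tnip1, an A20 partner, rose by 1.67 ± 0.18, and Birc2, which encodes the ubiquitin ligase cIAP1, by 1.04 ± 0.17.

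The promoters of an NF-kB target of each kind, a cytokine gene near background in mock cells and an inhibitor gene well above background there, are shown because they share the NF-kB consensus motif close to the start. Sequences are from RefSeq (GRCm38.p6), read 5′ to 3′ on the gene's strand and ending just before the annotated start, with NF-kB consensus matches in capitals.
Il6 promoter (chr5:30013014-30013113, plus strand): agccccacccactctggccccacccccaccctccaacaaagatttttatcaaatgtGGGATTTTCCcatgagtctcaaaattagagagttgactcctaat
Nfkbia promoter (chr12:55492648-55492722, minus strand): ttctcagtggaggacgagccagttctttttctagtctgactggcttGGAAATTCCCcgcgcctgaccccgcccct
The match lies at positions -44 to -35 in Il6 and -29 to -20 in Nfkbia. Il6, the gene of interleukin 6, read 2.85, 2.70 and 2.73 in the mock arrays and 9.55, 9.55 and 10.51 in the LPS arrays.

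Phosphatases that switch off MAP kinases moved in both directions. Of 13 genes of dual-specificity phosphatases 4 rose and 4 fell (6 arrays: 2 and 2), and the median was -0.08, or 0.08 after cyclic loess. The falls numbered 2 without mock 1 and the rises 2 without LPS 2. Dusp2, a nuclear phosphatase of ERK and p38, read 5.37, 4.55 and 4.75 in the mock arrays and 7.74, 8.21 and 7.50 in the LPS arrays. Dusp6, the cytoplasmic ERK phosphatase, read 8.40, 8.51 and 7.97 in the mock arrays and 6.09, 6.60 and 5.70 in the LPS arrays. Neither gene's groups overlapped, with changes of 2.93 ± 0.21 and -2.16 ± 0.19. Dusp16, a JNK phosphatase, rose by 1.82 ± 0.13, and Dusp3 fell by 1.64 ± 0.17.

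Regulators of mRNA decay, which limit how long cytokine mRNA lasts, were split too. Of 14 genes 3 rose and 4 fell (21.4% and 28.6%, against 14.3% and 24.5% of all genes above background), with a median of 0.16. Zfp36, which encodes the decay factor tristetraprolin, read 10.77, 10.27 and 10.54 in the mock arrays and 10.35, 10.49 and 10.09 in the LPS arrays, and its change of -0.22 ± 0.16 did not pass (limma adjusted p = 0.372), though after a further quantile normalization it was -0.63 and did. Its relatives fell, Zfp36l2 from 10.68, 10.22 and 10.59 to 7.67, 7.86 and 6.55 and Zfp36l1 from 9.22, 9.46 and 9.37 to 7.45, 7.33 and 7.61, with no overlap. Zc3h12d, of the Regnase family of RNA-degrading enzymes, fell by 2.28 ± 0.25, whereas its paralog Zc3h12c rose by 1.61 ± 0.16. Arid5a, which protects Il6 mRNA from decay, rose by 1.56 ± 0.21.

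Early transcription factors were as often down as up in this window. Of 33 genes 8 rose and 10 fell. The median was -0.07, or 0.15 after cyclic loess. Fos, an AP-1 subunit, read 9.76, 9.34 and 9.54 in the mock arrays and 6.92, 7.48 and 7.64 in the LPS arrays, and Nr4a1, an orphan nuclear receptor gene, read 9.63, 9.03 and 9.28 in the mock arrays and 6.72, 7.20 and 5.88 in the LPS arrays. All LPS arrays of both genes lay more than 1 log2 unit under the mock arrays. Btg2, an antiproliferative gene, fell by 1.62 ± 0.16 and Klf4 fell by 1.54 ± 0.23. Egr1, whose groups overlapped, changed by -0.23 ± 0.19 (limma adjusted p = 0.423). On the other side Batf2, an interferon-linked AP-1 factor, rose by 2.91 ± 0.12, Csrnp1 by 2.36 ± 0.16, Egr2 by 1.95 ± 0.13 and Maff by 1.75 ± 0.18.

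Cytokine genes rose in every family counted, with some falls. In the interleukin 1 family 9 of 15 genes rose (median 0.68). Il1b read 9.39, 8.75 and 8.87 in the mock arrays and 11.27, 11.43 and 11.63 in the LPS arrays, and Il1rn, which encodes the natural antagonist of the interleukin 1 receptor, read 7.23, 7.23 and 7.51 in the mock arrays and 9.83, 10.14 and 9.95 in the LPS arrays. Agonist and antagonist rose by similar amounts, 2.44 ± 0.17 and 2.65 ± 0.13. Il18 rose by 2.41 ± 0.16 and Il33, an alarmin, by 2.28 ± 0.27.

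The interleukin 6 and 12 families had the largest median of the cytokine groups, 1.98, with 7 of 13 genes up and 2 down. Il12b, the subunit shared by interleukins 12 and 23, read 2.98, 2.85 and 2.64 in the mock arrays and 7.34, 7.28 and 7.57 in the LPS arrays. Il27, the specific subunit of interleukin 27, read 5.93, 5.57 and 5.15 in the mock arrays and 9.55, 9.49 and 9.43 in the LPS arrays. Both sets of LPS arrays agreed within 0.3 log2 units, and the changes were 4.57 ± 0.13 and 3.94 ± 0.16. Il23a rose by 2.02 ± 0.21 and Lif by 2.19 ± 0.17. Osm, which encodes oncostatin M, fell by 1.58 ± 0.23, from 7.46, 6.17 and 6.72 to 5.11, 5.48 and 5.03.

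Among 16 ligand genes of the TNF family 7 rose (median 0.43). Tnf read 10.03, 9.44 and 9.69 in the mock arrays and 11.46, 11.60 and 11.33 in the LPS arrays, a rise of 1.74 ± 0.14. Tnfsf9, the 4-1BB ligand gene, rose by 4.22 ± 0.19, Tnfsf15 by 4.01 ± 0.12 and Tnfsf10, which encodes the death ligand TRAIL, by 2.90 ± 0.13. Of 26 other cytokines and growth factors 10 rose and 4 fell, with a median of 0.22. Il10, the anti-inflammatory cytokine, read 6.02, 4.93 and 5.68 in the mock arrays and 8.80, 9.46 and 9.68 in the LPS arrays. Edn1, which encodes the vasoconstrictor endothelin 1, read 2.95, 3.06 and 3.10 in the mock arrays and 8.18, 8.46 and 6.84 in the LPS arrays, with LPS 3 the lowest of the LPS arrays. Csf1, which encodes M-CSF, the factor these cells were grown in, rose by 2.94 ± 0.16, Inhba, an activin subunit gene, by 2.50 ± 0.22 and Il15 by 2.41 ± 0.15. Tgfb3 fell by 1.32 ± 0.16.

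Receptors for growth factors and cytokines followed in both directions. Of 16 genes 8 rose and 3 fell (median 0.57). Csf1r fell by 1.22 ± 0.14, to 8.40, 8.86 and 8.41, and Csf2rb, the signalling chain of the GM-CSF receptor, fell by 1.35 ± 0.14. Il15ra, which presents interleukin 15 to lymphocytes, rose from 4.66, 4.77 and 4.77 to 8.27, 8.22 and 7.58, alongside Il15.

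Chemokine genes of both classes rose. Of 16 CC chemokine genes 11 rose and 1 fell, with a median of 1.15, and of 15 CXC genes 6 rose and 1 fell, with a median of 0.23. The 1 CC fall was lost without mock 1, mock 2, LPS 1 or LPS 2, and 2 CXC genes fell without LPS 2. Ccl5, which attracts T cells, read 7.08, 6.71 and 6.92 in the mock arrays and 11.94, 12.02 and 11.35 in the LPS arrays. Ccl22, a ligand of CCR4, read 3.62, 3.83 and 4.09 in the mock arrays and 6.92, 7.10 and 6.78 in the LPS arrays. Ccl7, which attracts monocytes, rose by 3.53 ± 0.20 and Ccl4 by 4.24 ± 0.20. The groups of each of these genes were well apart. Among chemokines for neutrophils, Cxcl3 rose from 3.77, 3.77 and 3.58 to 7.23, 7.81 and 7.08 and Cxcl2 from 10.79, 10.39 and 10.62 to 11.85, 11.92 and 11.69. Ccl3 rose by 1.21 ± 0.14.

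Receptors for chemoattractants did not move as a group. Of 16 genes 3 rose and 3 fell, and the median of 0.07 became -0.04 after cyclic loess. Ccrl2, an atypical chemokine receptor gene, rose by 2.62 ± 0.14, and Ccr3 by 2.65 ± 0.21.

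Antiviral genes of the interferon response rose almost without exception. Of 25 genes of the IFIT, MX and OAS classes and their like 24 rose, with a median of 2.20. All 10 of 10 interferon-induced GTPase genes rose (median 2.48), as did 30 of 33 genes of the PARP, SLFN and TRIM families (median 1.47). Mx1 read 5.38, 5.88 and 5.59 in the mock arrays and 9.88, 9.93 and 10.42 in the LPS arrays. Cmpk2, a nucleotide kinase gene, read 6.25, 6.41 and 6.76 in the mock arrays and 10.96, 11.08 and 10.53 in the LPS arrays. Gbp3, a guanylate-binding protein that attacks intracellular pathogens, read 4.81, 4.88 and 4.84 in the mock arrays and 9.26, 9.30 and 8.98 in the LPS arrays. No mock array of these genes came within 3 log2 units of an LPS array. Ifi27 differed from this pattern, at 4.73, 4.46 and 4.61 in the mock arrays and 4.33, 4.37 and 4.39 in the LPS arrays (change -0.24 ± 0.12, limma adjusted p = 0.178). Members of the IFIT, OAS, GBP, SLFN and IFI200 families have near-identical copies that may share probes, so their single values are less certain than those of single-copy genes.

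Sensors of foreign nucleic acid rose in 10 of 12 genes measured, with a median of 1.70, and 1 fell without LPS 2. Ifih1, the gene of the RNA sensor MDA5, read 6.64, 7.02 and 6.89 in the mock arrays and 10.19, 10.37 and 10.70 in the LPS arrays. Ddx58, the gene of its relative RIG-I, rose by 1.61 ± 0.13, Cgas, the cytosolic DNA sensor, by 1.79 ± 0.17 and Zbp1, a sensor of Z-form nucleic acid, by 2.56 ± 0.18. All of these LPS arrays lay above their mock arrays.

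The signalling genes of the interferon response moved less evenly. Of 13 genes of interferon receptors, JAKs and STATs 5 rose and 3 fell (median 0.13). Jak2 rose by 2.83 ± 0.17, Stat5a by 2.23 ± 0.14 and Stat2 by 1.32 ± 0.16, whereas Ifngr2, a chain of the interferon-gamma receptor, fell by 1.06 ± 0.15. Of 8 SOCS genes, whose products inhibit JAKs and cytokine receptors, 4 rose (median 0.64), and without mock 1 1 fell. Socs1 read 5.13, 4.37 and 4.46 in the mock arrays and 8.44, 8.51 and 7.04 in the LPS arrays, with LPS 3 nearest to the mock arrays, Socs3 rose by 2.59 ± 0.23 and Cish by 2.92 ± 0.23. Of 9 IRF genes 3 rose and 2 fell. Irf1, which drives antigen presentation genes, rose by 2.06 ± 0.14 (0.31 at a second, dimmer probe set) and Irf4 by 2.54 ± 0.16, while Irf8, a factor of the monocyte lineage, fell by 0.78 ± 0.17. The median of the IRF list was -0.12, or 0.15 after cyclic loess.

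Promoters of 4 interferon-responsive genes are shown because they carry the core of the interferon-stimulated response element (ISRE), searched as GAAA, any pair of bases and GAAA on both strands, alone or beside NF-kB matches. They are from the same RefSeq table and build, as stretches of the 250 bases before the start, with matches in capitals.
Ifit1 promoter (chr19:34640769-34640858, plus strand): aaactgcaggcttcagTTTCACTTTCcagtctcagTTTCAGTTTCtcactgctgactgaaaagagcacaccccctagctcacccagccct
Ifit3b promoter (chr19:34607757-34607856, plus strand): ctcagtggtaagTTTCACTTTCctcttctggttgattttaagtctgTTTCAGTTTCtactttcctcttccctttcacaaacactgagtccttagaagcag
Gbp5 promoter (chr3:142496759-142496883, plus strand): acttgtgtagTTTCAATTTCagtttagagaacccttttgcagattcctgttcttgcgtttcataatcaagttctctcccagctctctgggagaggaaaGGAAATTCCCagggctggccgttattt
Cxcl10 promoter (chr5:92348975-92349109, minus strand): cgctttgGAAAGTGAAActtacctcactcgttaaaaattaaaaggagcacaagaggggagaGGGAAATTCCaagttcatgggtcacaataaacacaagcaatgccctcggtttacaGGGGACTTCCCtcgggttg
The capitals at the right of Gbp5 and the later capitals of Cxcl10 are NF-kB consensus matches, and the run of 11 capitals in Cxcl10 holds overlapping matches. Ifit1 rose from 7.36, 7.30 and 7.58 to 11.13, 11.13 and 11.31, Ifit3b from 3.02, 3.30 and 3.91 to 7.41, 7.58 and 8.85 and Gbp5 from 4.63, 4.29 and 4.69 to 10.74, 10.80 and 11.02. Cxcl10 rose from 10.66, 9.97 and 10.62 to 12.62, 12.70 and 12.31, near the highest value of any array, 12.82.

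Over whole groups these motifs were unequally frequent. A promoter window of 250 bases before to 50 after a start was found for 15562 of the tested genes. The ISRE core lay in a window of 34 of 207 genes (16.4%) that rose at least 4-fold, of 6 of 114 genes (5.26%) that fell at least 4-fold, and of 350 of 9575 genes (3.66%) above background. It was found in 9 of 18 genes of the IFIT, MX and OAS list, in 5 of 5 interferon-induced GTPase genes and in 13 of 29 of the PARP, SLFN and TRIM list. The NF-kB consensus lay in 19.8% of the genes that rose at least 4-fold, in 16 of 114 of those that fell at least 4-fold and in 12.4% of those above background. It was found in 6 of 8 genes of NF-kB subunits and IkB proteins, but also in 7 of 24 of the LXR and fatty acid list and 9 of 50 lysosomal genes, and in only 1 of 12 TNF family ligand genes. A match is a description of the letters only, and whether a factor was bound was not measured.

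Antigen presentation by MHC class I rose as a group, and class II did not. Of 14 class I genes 11 rose, with a median of 1.38. Tap1, a subunit of the peptide transporter, read 7.34, 6.79 and 7.04 in the mock arrays and 9.38, 9.36 and 8.84 in the LPS arrays. Tapbp, which loads peptides, rose by 2.20 ± 0.18, and the immunoproteasome genes Psmb8 and Psmb10 rose by 1.65 ± 0.17 and 1.87 ± 0.19. No mock array of these genes reached an LPS array. Of 11 class II genes 2 rose and 3 fell (6 arrays: 1 and 2, median 0.20), and 1 rose without mock 2 or LPS 1. H2-Aa, a class II chain, fell by 1.09 ± 0.16, and Rfx5, a factor of class II promoters, rose by 1.06 ± 0.15.

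Costimulatory and adhesion molecules were mostly higher. Of 31 genes 16 rose and 7 fell (median 0.55). Cd40, which receives help from T cells, read 5.23, 5.29 and 5.76 in the mock arrays and 9.99, 10.10 and 9.71 in the LPS arrays, and Vcam1, an endothelial and macrophage adhesion molecule, read 3.44, 3.50 and 3.11 in the mock arrays and 7.44, 7.96 and 7.53 in the LPS arrays. Both groups of LPS arrays stood about 4 log2 units higher. Cd69 rose by 3.95 ± 0.13, Icam1 by 2.21 ± 0.15 and Cd274, which encodes the inhibitory ligand PD-L1, by 2.05 ± 0.19. The integrin genes Itga6 and Itgb5 fell (changes -2.35 ± 0.28 and -1.67 ± 0.19), while Itgal rose by 1.62 ± 0.16.

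**Figure D3:**
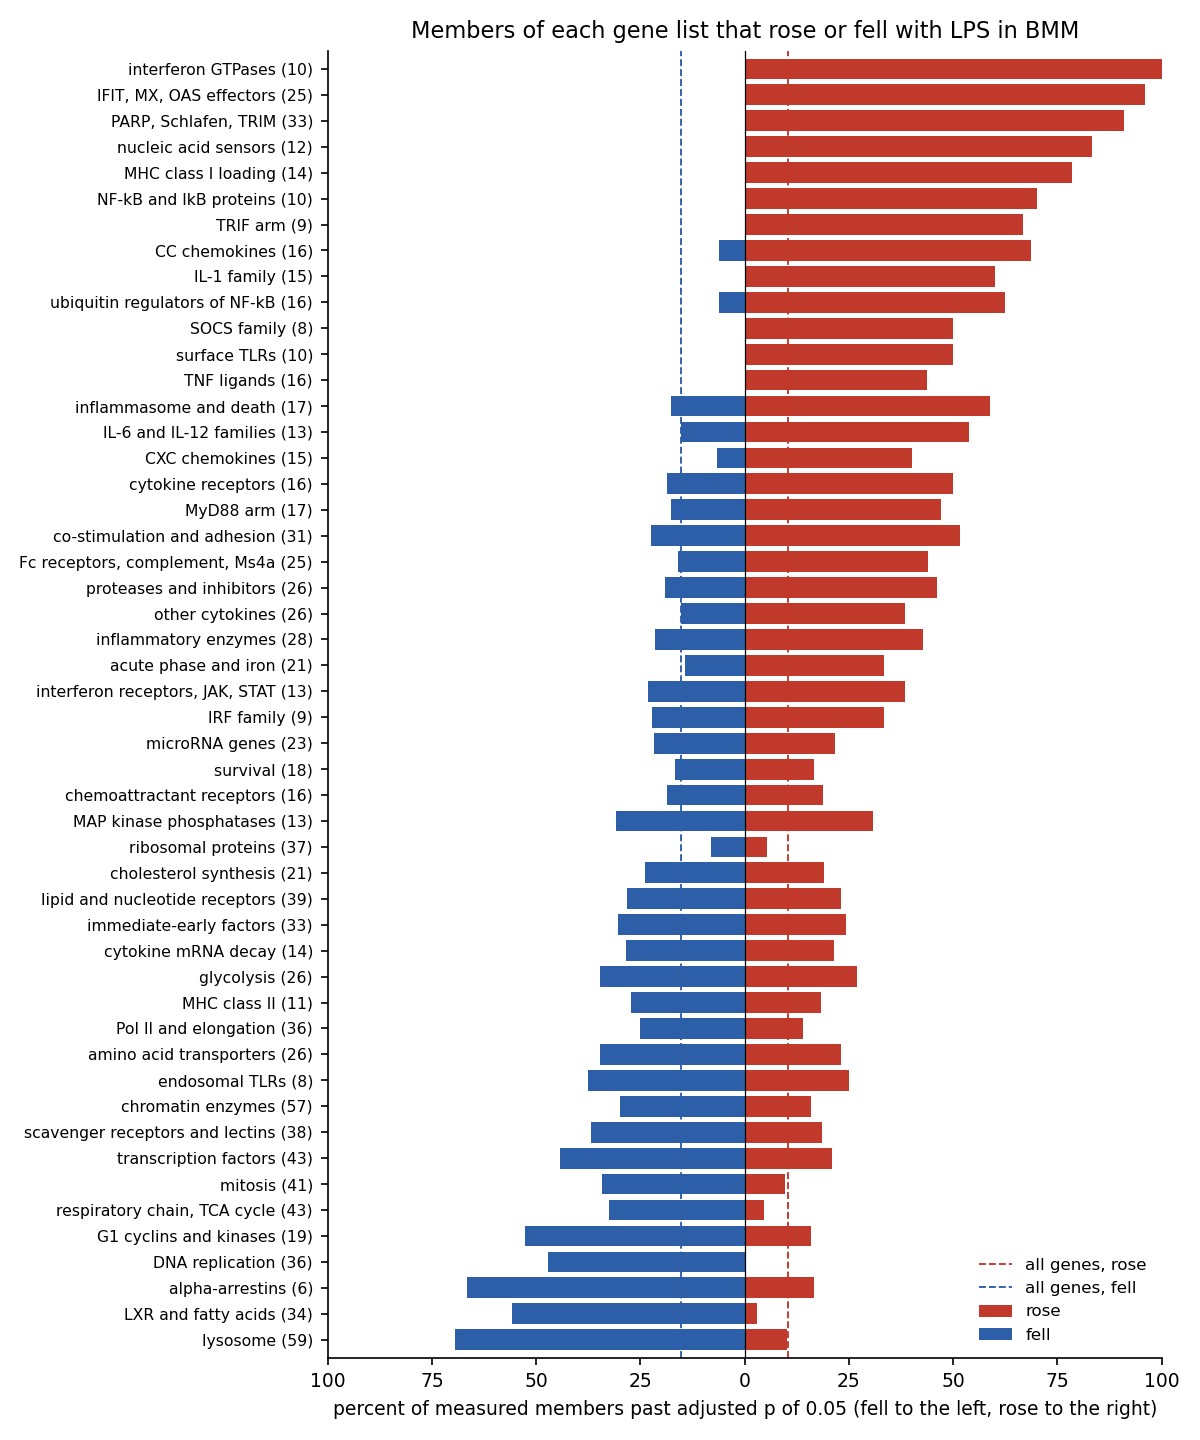
For each pathway list, the share of its measured genes that rose or fell in bone marrow macrophages with LPS (percent, bars to the right and left), with dashed lines at the shares over all genes, 10.3% for rises and 15.4% for falls. The interferon lists stand at the top for rises, and the lysosome list has the largest share of falls.

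Enzymes of inflammatory mediators moved in both directions. Of 28 genes 12 rose and 6 fell (median 0.10). Ptgs2, the inducible cyclooxygenase of prostaglandin synthesis, read 7.50, 7.47 and 7.75 in the mock arrays and 11.66, 11.81 and 11.62 in the LPS arrays, and Ptges, the next enzyme towards prostaglandin E2, rose by 2.21 ± 0.21. Nos2, which produces nitric oxide on induction, went from 3.08, 3.04 and 2.89 to 5.52, 6.01 and 5.78, and the itaconate-producing enzyme gene Acod1 rose by 3.00 ± 0.13. Alox5ap, needed for leukotriene synthesis, read 8.13, 8.08 and 8.38 in the mock arrays and 5.97, 6.42 and 6.05 in the LPS arrays and fell by 2.05 ± 0.14. Tbxas1, the thromboxane synthase, fell by 1.62 ± 0.16, Odc1, the first enzyme of polyamine synthesis, fell by 1.60 ± 0.20 and Hmox1, which degrades heme, fell by 1.47 ± 0.19.

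Proteases, coagulation and matrix genes included 12 rises and 5 falls among 26 (median 0.37). F3, which encodes tissue factor, the starter of coagulation, read 3.82, 3.69 and 3.69 in the mock arrays and 7.09, 7.50 and 6.91 in the LPS arrays. Thbd, which encodes its counterpart thrombomodulin, an anticoagulant receptor, read 6.65, 6.35 and 6.79 in the mock arrays and 4.29, 4.69 and 4.35 in the LPS arrays. The groups of each gene were separate, in opposite directions. Timp1, a metalloproteinase inhibitor, rose by 3.18 ± 0.21, while Timp2 fell by 2.21 ± 0.18, and Plat, the tissue plasminogen activator, rose by 2.56 ± 0.19.

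Of 21 acute phase and iron genes 7 rose and 3 fell (median 0.24), and with the 6 arrays 1 fell. Cp, the copper-carrying ferroxidase ceruloplasmin, rose from 3.15, 3.32 and 3.32 to 7.01, 6.88 and 7.43, and Lcn2, which withholds iron from bacteria, by 3.08 ± 0.16. Ftl1, a ferritin light chain gene, read 7.54, 6.99 and 7.04 in the mock arrays and 4.38, 6.41 and 4.52 in the LPS arrays, with LPS 2 close to the mock arrays. Its change had the widest error of the genes named here, -2.09 ± 0.51, and ferritin pseudogenes may share its probes.

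Cell death and inflammasome genes were mostly higher. Of 17 genes 10 rose and 3 fell (median 0.46). With the 6 arrays 1 fell, as it did without mock 3, LPS 1, LPS 2 or MPI-2 mock 1. Casp1 and Casp4, the inflammatory caspases, rose by 1.90 ± 0.23 and 1.76 ± 0.17. Nlrp3, the sensor of the main inflammasome of macrophages, rose by 1.22 ± 0.14, Gsdmd, the pore-forming target of these caspases, by 1.18 ± 0.21 and Mlkl, the executor of necroptosis, from 4.33, 4.65 and 4.91 to 7.69, 7.60 and 7.79. Nlrp1b fell by 1.51 ± 0.19. Survival genes showed 3 rises and 3 falls in 18, with a median of -0.03 (0.07 after cyclic loess), and 1 fall without mock 2 or LPS 3 and with the 6 arrays. Cflar, an inhibitor of caspase 8, rose by 2.14 ± 0.16, and Gadd45b by 1.40 ± 0.20.

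Sugar metabolism changed at a few steps. Of 26 glycolysis genes 7 rose and 9 fell (median -0.27). Slc2a6, a sugar transporter family gene, read 7.97, 7.24 and 7.54 in the mock arrays and 10.36, 10.31 and 9.84 in the LPS arrays. Pfkfb3, which makes the activator of phosphofructokinase, rose by 1.57 ± 0.13 and Hk2, a hexokinase, by 1.59 ± 0.21. Pgam1, a later enzyme of the pathway, fell by 1.34 ± 0.16. The monocarboxylate transporters for lactate diverged, as Slc16a1 rose by 1.64 ± 0.17 and Slc16a3 fell by 1.32 ± 0.23.

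Many genes of lipid handling fell. Of 34 LXR target and fatty acid genes 19 fell and 1 rose, with a median of -0.58, and 13 fell with the 6 arrays. Abcg1, which exports cholesterol, read 9.80, 9.60 and 9.74 in the mock arrays and 7.53, 7.91 and 6.54 in the LPS arrays. Fads1, a desaturase of polyunsaturated fatty acids, read 8.17, 7.76 and 7.86 in the mock arrays and 5.08, 5.13 and 5.74 in the LPS arrays. The LPS arrays lay below the mock arrays in each, by at least 1.5 log2 units. Apoe, the apolipoprotein that carries exported cholesterol, fell by 1.50 ± 0.18, Mylip, which degrades the LDL receptor, fell by 1.29 ± 0.12, and Rxra, the nuclear partner of LXR, fell by 1.52 ± 0.17. Lpcat3, a phospholipid remodelling enzyme, rose by 0.68 ± 0.16. Of 21 cholesterol synthesis genes 4 rose and 5 fell, and with the 6 arrays 1 rose and 1 fell, Sc5d (change 0.80 ± 0.16) and Msmo1 (-1.37 ± 0.23). In the 12-array fit 19% of that list rose and 23.8% fell, against 14.3% and 24.5% of all genes above background. Its median was -0.10, or 0.14 after cyclic loess, where 4 rose and 2 fell. Without LPS 1 or LPS 3, 3 fell, and 2 rose without LPS 2.

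Lysosomal genes had the largest share of falls of the pathway lists in the 12-array fit. Of 59 genes 41 fell (69.5%) and 6 rose, with a median of -0.88, or -0.75 after cyclic loess. Acid hydrolases, membrane proteins and proton pump subunits were among the genes that fell. Lgmn, the protease legumain, read 10.12, 10.16 and 10.13 in the mock arrays and 6.71, 7.29 and 7.68 in the LPS arrays. Gusb, the beta-glucuronidase, read 7.84, 7.62 and 7.71 in the mock arrays and 4.94, 5.03 and 4.75 in the LPS arrays. Laptm5, a lysosomal membrane protein of blood cells, read 10.65, 10.34 and 10.67 in the mock arrays and 7.93, 8.11 and 7.95 in the LPS arrays. In each of these the mock arrays agreed within 0.4 log2 units, and no LPS array came within 2 log2 units of them.

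Further falls were spread over the degradation of sugars and lipids. Lipa, the acid lipase, fell by 1.95 ± 0.13, Galc, a galactosylceramidase, fell by 2.38 ± 0.22 and Hexa, a hexosaminidase subunit, fell by 1.93 ± 0.18. Npc1, the cholesterol exporter of lysosomes, fell by 2.08 ± 0.16 and Atp6v0d2, a proton pump subunit of macrophages and osteoclasts, fell by 2.02 ± 0.21. Of the 6 that rose, Tfec, a transcription factor of the TFEB family, read 5.79, 6.57 and 6.53 in the mock arrays and 9.58, 9.75 and 9.78 in the LPS arrays, a rise of 3.41 ± 0.17. The other members up were Ctsc, a cathepsin that activates serine proteases, by 1.29 ± 0.15, Igf2r, the sorting receptor for hydrolases, by 1.28 ± 0.15, Tcirg1, another proton pump subunit, by 0.99 ± 0.15, Clcn7, a chloride exchanger, by 0.70 ± 0.16 and Npc2 by 0.67 ± 0.15. Tfeb itself, the main activator of lysosomal genes, fell by 1.03 ± 0.18.

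The letters TCACGTGA, the core that TFEB family factors bind, were found in promoter windows of 8 of 50 lysosomal genes (16%) and of 2.18% of genes above background. This motif was searched after the fall of the group was known. A pair of promoters with it, from the same table and build, are shown with the motif in capitals, and Gla holds it at 2 positions.
Ctsd promoter (chr7:142387868-142387957, minus strand): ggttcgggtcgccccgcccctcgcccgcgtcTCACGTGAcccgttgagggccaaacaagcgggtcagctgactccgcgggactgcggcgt
Gla promoter (chrX:134601166-134601245, minus strand): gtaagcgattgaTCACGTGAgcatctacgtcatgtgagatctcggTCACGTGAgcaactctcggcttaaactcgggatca
Ctsd, the gene of the aspartic protease cathepsin D, read 10.47, 10.01 and 10.31 in the mock arrays and 8.62, 8.84 and 8.83 in the LPS arrays, and Gla, an alpha-galactosidase, fell by 1.81 ± 0.19. Ctsd, Gla and Tfeb were chosen for mention after their values were seen.

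Amino acid transporters and alpha-arrestins showed large single changes. Of 26 transporter genes 6 rose and 9 fell (median -0.34). Slc7a2, which imports arginine, read 5.29, 5.22 and 5.05 in the mock arrays and 9.14, 9.19 and 8.82 in the LPS arrays, and Slc7a11, the cystine importer that feeds glutathione synthesis, read 5.35, 6.16 and 5.47 in the mock arrays and 9.47, 9.63 and 9.11 in the LPS arrays. Slc43a2, which carries large neutral amino acids, read 9.22, 8.98 and 9.33 in the mock arrays and 5.08, 5.67 and 4.72 in the LPS arrays, with no overlap in any of the 3 genes. Slc38a2, a glutamine transporter, fell by 1.51 ± 0.15. Of 6 alpha-arrestin genes 4 fell and 1 rose, with a median of -0.94. Txnip, which limits glucose uptake, read 10.89, 11.12 and 11.03 in the mock arrays and 9.28, 9.49 and 9.26 in the LPS arrays, Arrdc2 fell by 1.28 ± 0.20, and Arrdc4 rose by 0.90 ± 0.16.

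G protein-coupled and purinergic receptors were changed in both directions. Of 39 genes 9 rose and 11 fell (23.1% and 28.2%, against 14.3% and 24.5% of all genes above background), with a median of 0.07. Hcar2, which senses niacin and hydroxybutyrate, read 4.44, 4.08 and 3.77 in the mock arrays and 7.59, 7.93 and 7.66 in the LPS arrays, and Gpr84, which senses medium-chain fatty acids, rose by 1.96 ± 0.19. Lpar6, a lysophosphatidic acid receptor gene that lies inside the retinoblastoma gene Rb1, read 9.90, 10.20 and 10.47 in the mock arrays and 6.17, 5.77 and 6.13 in the LPS arrays. P2rx7, the ATP-gated channel that triggers the inflammasome, read 7.44, 7.16 and 7.79 in the mock arrays and 5.66, 5.46 and 5.28 in the LPS arrays. Both receptors that fell had LPS arrays more than 1 log2 unit under every mock array. S1pr1 fell by 1.91 ± 0.20, Gpr65, a proton sensor, fell by 1.85 ± 0.22 and Cnr2, a cannabinoid receptor, fell by 1.80 ± 0.18, while P2ry2 rose by 1.99 ± 0.19 and Lpar1 by 2.01 ± 0.16.

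Transcription factors of the macrophage lineage moved in both directions. Of 43 genes 9 rose and 19 fell (20.9% and 44.2%, against 14.3% and 24.5% of all genes above background), and the median was -0.20. Cebpa, a factor of myeloid development, read 6.91, 6.22 and 6.30 in the mock arrays and 3.96, 3.63 and 4.17 in the LPS arrays, and its relative Cebpd rose by 1.09 ± 0.21. Id3 fell by 2.78 ± 0.32, Bhlhe41 fell by 2.56 ± 0.18, Nr1d1, a repressor of the circadian clock, fell by 2.07 ± 0.22 and Runx3 fell by 1.77 ± 0.21. Irf2bp2 fell by 2.34 ± 0.32. Ikzf1, the gene of Ikaros, rose by 1.58 ± 0.15.

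Several receptors for debris and dying cells fell, as did macrophage identity genes, while other scavenger receptors and lectins rose. Of 38 genes of scavenger, TAM and related receptors 7 rose and 14 fell (median 0.01, or -0.09 after cyclic loess). Mertk, which drives uptake of dying cells, read 6.59, 7.36 and 7.52 in the mock arrays and 5.02, 5.48 and 4.71 in the LPS arrays. Stab1 fell by 2.36 ± 0.18, Lrp1 fell by 1.74 ± 0.18, Trem2, a lipid-sensing receptor, fell by 1.72 ± 0.20 and its signalling adaptor Tyrobp fell by 1.66 ± 0.18. Olr1, a receptor for oxidised LDL, rose from 5.71, 6.15 and 6.36 to 9.69, 10.14 and 10.36. Msr1, the scavenger receptor A, rose by 2.02 ± 0.12, Clec4e, the mycobacterial lipid receptor Mincle, by 2.20 ± 0.20 and Clec5a by 2.81 ± 0.24. Of 11 identity genes 1 rose and 6 fell, with a median of -0.72. Cd68 read 9.72, 9.30 and 9.76 in the mock arrays and 7.77, 7.98 and 8.14 in the LPS arrays, Itgam fell by 0.72 ± 0.13 and Lyz2 fell by 0.75 ± 0.13, and Adgre1 and Fcgr1 changed by -0.07 ± 0.12 and 0.09 ± 0.15, neither past the test. After a further quantile normalization Adgre1 passed as a fall, with a change of -0.42.

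Of 25 Fc receptor, complement and MS4A genes 11 rose and 4 fell (median 0.20). Fcgr4, an activating receptor for IgG, read 6.62, 5.99 and 6.10 in the mock arrays and 8.33, 8.45 and 8.75 in the LPS arrays, and Fcgr2b, the inhibitory one, read 7.22, 7.18 and 7.33 in the mock arrays and 9.46, 9.38 and 9.35 in the LPS arrays. Both rose, by 2.27 ± 0.16 and 2.15 ± 0.11. Cfb, of the alternative complement pathway, rose by 2.41 ± 0.16 and Ms4a4c by 2.94 ± 0.16, while C1qa, of the classical pathway, fell by 1.51 ± 0.23.

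Cell cycle lists held falls in DNA replication and G1 control, and less clearly in mitosis. In the 12-array fit 47.2% of the replication, 34.1% of the mitosis and 52.6% of the G1 genes fell. Of all genes above background 24.5% fell in that fit, 17.3% with the 6 arrays and 19% after cyclic loess. Of 36 replication genes 17 fell, with a median of -0.42, against 12 falls and 2 rises after cyclic loess. Cdt1, which licenses origins, read 7.17, 6.61 and 7.19 in the mock arrays and 5.21, 5.45 and 4.90 in the LPS arrays, Rrm2, of ribonucleotide reductase, fell by 1.57 ± 0.19 and Mcm7, a helicase subunit, fell by 1.29 ± 0.11. Of 41 mitosis genes 4 rose and 14 fell (4 and 9 with the 6 arrays, 4 and 8 after cyclic loess), with a median of -0.32. After cyclic loess the mitosis falls were near the share of all genes above background. Cenpa, the centromeric histone, fell by 2.56 ± 0.13, and Mki67, the proliferation marker, rose by 1.66 ± 0.13. Of 19 genes of G1 control 3 rose and 10 fell (median -0.51). The D cyclins moved apart, Ccnd1 from 8.81, 8.46 and 8.55 to 6.74, 7.26 and 5.96 and Ccnd2 from 4.37, 3.93 and 4.32 to 7.09, 7.23 and 6.82.

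Chromatin enzymes changed gene by gene. Of 57 genes 9 rose and 17 fell (15.8% and 29.8%, against 14.3% and 24.5% of all genes above background). The median was -0.08, or 0.015 after cyclic loess. Setdb2, a histone methyltransferase gene, read 4.88, 5.69 and 5.66 in the mock arrays and 7.64, 7.69 and 7.84 in the LPS arrays, and Kdm6b, the H3K27 demethylase of the inflammatory response, rose by 1.14 ± 0.19. Among DNA methylation genes, Tet2 rose by 1.07 ± 0.21 while Tet3 fell by 1.94 ± 0.19, Dnmt1 fell by 1.82 ± 0.14 and Dnmt3a fell by 1.46 ± 0.14. Hdac5 fell by 1.86 ± 0.21. In the elongation list 5 of 36 rose and 9 fell (13.9% and 25%), near the shares of all genes above background. Its median was -0.15, or 0.05 after cyclic loess. Polr2a, the largest RNA polymerase II subunit, fell by 0.99 ± 0.15, Cdk9, the elongation kinase, fell by 1.19 ± 0.26 and Ell fell by 1.04 ± 0.18, whereas Ell2 rose by 0.93 ± 0.14.

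Some respiratory chain genes fell, but with the 6 arrays and after cyclic loess no larger a share than of all genes above background. Of 43 genes of the respiratory chain and citrate cycle 2 rose and 14 fell (median -0.30), and 7 fell with the 6 arrays and 7 after cyclic loess. The shares of all genes above background that fell were 24.5%, 17.3% with the 6 arrays and 19% after cyclic loess, and the list's share in the 12-array fit was 32.6%. Sdhb, a succinate dehydrogenase subunit, fell by 1.21 ± 0.16, Idh2 fell by 1.08 ± 0.16 and Fh1, the fumarase, fell by 0.93 ± 0.11, while Cs, the citrate synthase, rose by 0.96 ± 0.17. Of 37 ribosomal protein genes 2 rose and 3 fell (6 arrays: 1 and 0). That count changed by more than 1.5 times when any 1 of the 12 arrays was left out, with falls between 0 and 5, and most of these genes have pseudogenes that may share probes.

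MicroRNA loci are measured here as newly made precursor transcripts, not as mature microRNAs. The mature products of the loci the results turn on, which are made from hairpins of those transcripts, are shown from RefSeq (GRCm38.p6), 5′ to 3′, with the seed (bases 2 to 8), which pairs with target mRNAs, in capitals.
miR-155-5p: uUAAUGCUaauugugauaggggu
miR-221-3p: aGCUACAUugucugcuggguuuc
miR-222-3p: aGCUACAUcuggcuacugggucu
miR-125a-5p: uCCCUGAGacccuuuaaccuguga
miR-146b-5p: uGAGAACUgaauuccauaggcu
miR-23a-3p: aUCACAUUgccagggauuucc
miR-27a-3p: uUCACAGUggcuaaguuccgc
miR-24-3p: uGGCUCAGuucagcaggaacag
miR-34a-5p: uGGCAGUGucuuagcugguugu
miR-142a-3p: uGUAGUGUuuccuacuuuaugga
The sequences of miR-221-3p and miR-222-3p share the seed GCUACAU, and the others have seeds of their own.

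Of 23 microRNA genes 5 rose and 5 fell (21.7% each, against 14.3% and 24.5% of all genes above background), with a median of 0.11. All 23 were matched to RefSeq. Mir155, known as an early target of NF-kB, read 5.23, 5.20 and 5.53 in the mock arrays and 9.59, 9.65 and 9.65 in the LPS arrays, a rise of 4.31 ± 0.13. The neighbours Mir221 and Mir222 on chromosome X, whose products share a seed, rose together, by 2.17 ± 0.26 and 1.77 ± 0.19. Mir125a rose by 1.57 ± 0.21 and Mir146b, whose product targets adaptors of TLR signalling, by 0.79 ± 0.16. The loci Mir23a, Mir27a and Mir24-2 lie within 1 kb on chromosome 8 and fell together, with changes of -1.64 ± 0.24, -1.48 ± 0.25 and -1.0 ± 0.20. Mir34a fell by 1.59 ± 0.29 and Mir142, a locus of blood cells, fell by 1.25 ± 0.17, and no LPS array of these loci reached a mock array.

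Some changes lay side by side in the genome. In the order of RefSeq genes, the interferon-inducible Ifi200 genes from Aim2 to Ifi205 on chromosome 1 formed a run of 10 neighbours that rose, with a median of 3.51, of which 8 passed with the 6 arrays. A run of 9 genes with the Schlafen genes on chromosome 11 rose with a median of 1.65. The MHC neighbours Psmb9, Tap1, Psmb8 and Tap2 rose with a median of 1.69. In the other direction, a run of 8 genes from Prune1 to Ctss on chromosome 3, with the lysosomal proteases Ctsk and Ctss at its end, fell with a median of -1.10. Neighbouring genes of 1 family can share probes, so these runs are descriptions.

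The longest class of genes had the smallest share of falls. Only protein-coding genes above background with a RefSeq length were counted. The share that fell was 17.2% up to 5 kb and reached 30.5% between 40 and 80 kb. It was 10.7% in the 600 genes over 160 kb. In that longest class 7 genes rose at least 4-fold and 0 fell at least 4-fold, and the median change was 0.07, against -0.13 between 40 and 80 kb. The share that rose went from 9.86% in the shortest to 19.7% in the longest class. Genes are not independent replicates, and length goes along with other properties of a gene, so no test is given.

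**Figure D4:**
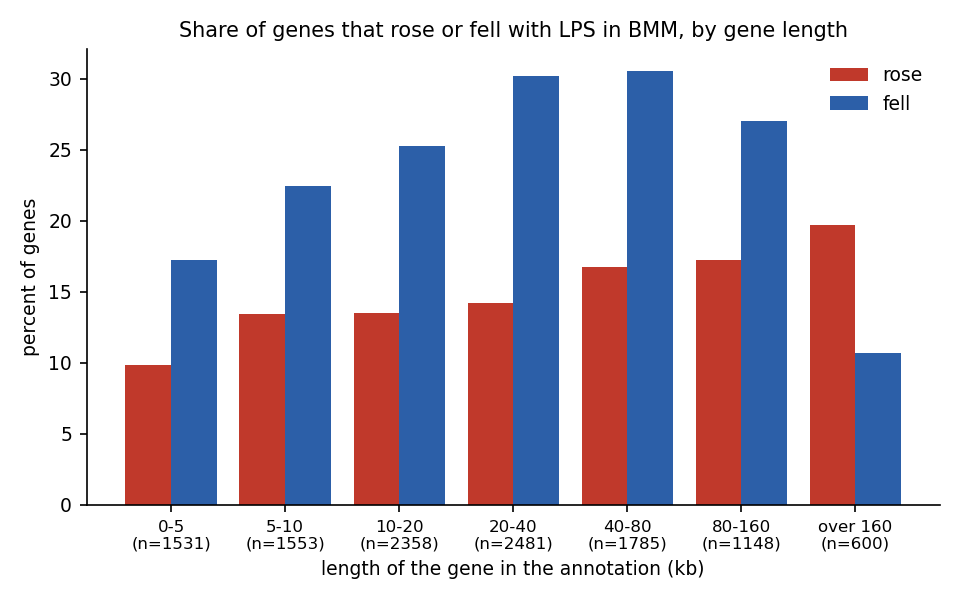
Share of protein-coding genes above background that rose or fell with LPS in bone marrow macrophages (percent, vertical axis), by gene length class (kb, horizontal axis). The share of falls climbs to 30.5% at 40 to 80 kb and drops to 10.7% over 160 kb.

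The response of bone marrow macrophages differed from that of MPI-2 at many genes. The difference of the changes, tested as an interaction in the 12-array fit, was past the threshold for 2662 genes (13.4%), with the value higher in bone marrow cells for 1250 (6.27%) and lower for 1412 (7.08%). The cell types differ in origin, growth factor and medium, and these cannot be told apart.

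Over all genes 1031 (5.17%) rose and 1910 (9.58%) fell in MPI-2. The interferon lists held a wide gap. In the IFIT, MX and OAS list 3 genes rose in MPI-2 and 4 fell, and the response was higher in bone marrow cells for 23 of 25 genes. Other interferon lists rose in part in MPI-2, with 4 of 10 GTPase genes, 4 of 12 nucleic acid sensors and 9 of 33 genes of the PARP, SLFN and TRIM list up. In these the response was higher in bone marrow cells for 9, 6 and 22 genes. In the class I presentation list 1 rose in MPI-2, and 10 of 14 responses were higher in bone marrow cells. Mx1 changed by 0.02 in MPI-2, a difference (MPI-2 minus bone marrow) of -4.45 ± 0.23 (limma adjusted p = 6.07e-09). In MPI-2 its mean lay under the background level without and with LPS (2.86 and 2.87). Lysosomal genes also fell in MPI-2, 24 of 59, with 6 up. Of the responses, 23 of 59 were lower in bone marrow cells and 9 higher. Ctsd changed by 0.59 in MPI-2, a difference of 2.10 ± 0.20 (limma adjusted p = 2.46e-06).

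Some genes moved in opposite directions. Fcgr4 changed by -1.83 in MPI-2 (difference -4.10 ± 0.22), Irgm1, an immunity-related GTPase of autophagy, rose by 2.20 ± 0.14 in bone marrow cells and changed by -1.06 in MPI-2 (difference -3.26 ± 0.20), and Tlr13 changed by 2.16 (difference 3.14 ± 0.32). Nr4a1, Btg2 and Osm, which fell in bone marrow cells, changed by 1.02, 1.57 and 1.77 in MPI-2. Other responses were smaller in bone marrow cells, among them those of Nfkbiz (3.90 in MPI-2, difference 2.40 ± 0.22), Lcn2 (5.36, difference 2.27 ± 0.23) and Cd14 (2.64, difference 2.11 ± 0.18). For Ptgs2 and Mir155 the changes in MPI-2 were 4.16 and 4.12, and the differences of 0.04 ± 0.19 and -0.19 ± 0.19 did not pass the test.

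**Figure D5:**
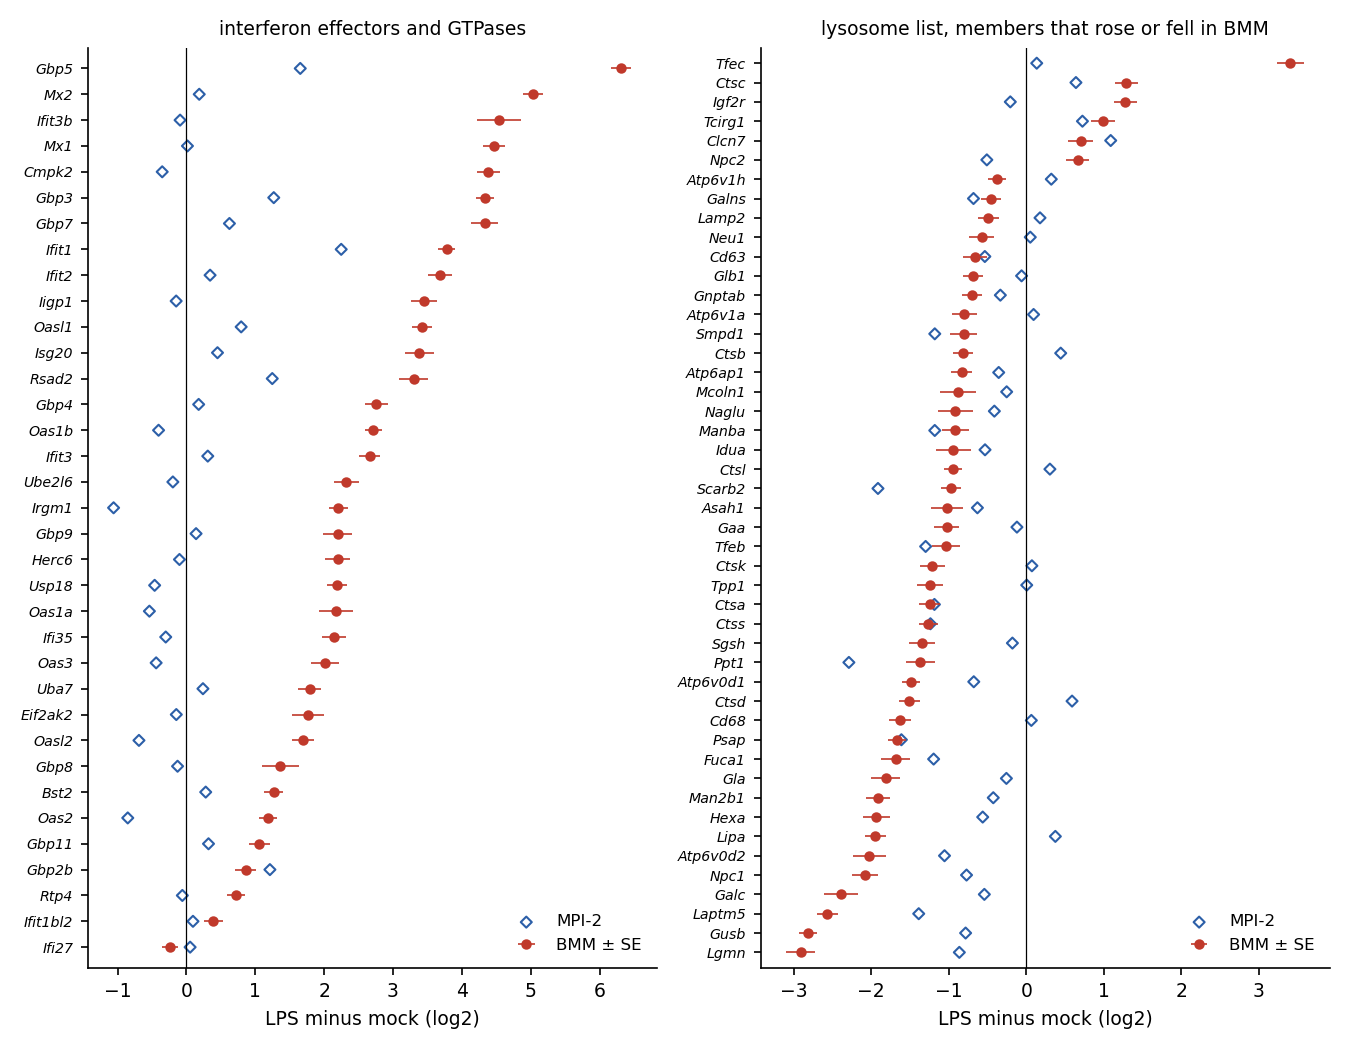
Change with LPS (log2, horizontal axis) of each interferon effector and GTPase gene (left) and of each lysosomal gene that rose or fell in bone marrow macrophages (right), in bone marrow macrophages (BMM, filled points, bars are SE) and MPI-2 (open diamonds). Most interferon genes lie above 1 in bone marrow cells and near 0 in MPI-2.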

How the data were processed

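Newly made RNA of 12 samples was hybridised to 1 whole-transcript Affymetrix array each. The deposited series table holds 1 log2 value per probe set and array, made with RMA in the package affy, per the submitters' processing notes (versions and build: not given in the sources used here). The deposited arrays still differed in spread (interquartile range 2.38 to 3.21), and an overall change in RNA output cannot be told apart from their scaling. Array intensity gives no read depth, and the number of arrays limits the precision. No label says whether LPS and mock arrays shared a batch.

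Of 34760 probe sets, 21640 had 1 gene, 1321 had several and 11799 had none in the platform annotation. For 954 genes with several probe sets, the set with the highest mean was used. Names were updated, and promoters, microRNAs and gene lengths taken, from RefSeq tables (GRCm38.p6). Differences were tested in R 4.3.3 with limma 3.58.1 (lmFit, eBayes), with 4 group means on 12 arrays (8 residual degrees of freedom) and Benjamini-Hochberg adjustment over 19937 genes. The 6-array fit had 4. The fit was also run on simulated data with independent noise and 1 spread for all genes of a group. Real genes differ in spread, so that run does not measure the error of the calls here. Same-numbered bone marrow arrays deviated with r = 0.285, -0.0964 and 0.0348, so numbers were not taken as pairs.

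The members and the 60 gene lists (1357 entries, 1230 matched) were chosen with earlier results of these data known. Named are the 20 largest rises and falls without overlap, up to 8 called members per direction and 6 uncalled members of each list, lists of 15 or fewer whole, and 16 genes always given. Alternatives were cyclic loess, quantile normalization, genes above background, 6 arrays, array weights, a trended robust prior, a replicate block, the mean of probe sets, and leaving out arrays.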

Additional observations from a re-analysis of the deposited data

Results flagged for a closer look

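The genes considered were 53, the 40 with the largest changes under the naming rule and 16 given throughout, some in both. Of these, 44 had a response that differed between MPI-2 and bone marrow macrophages in limma's test of the difference. The values below are the MPI-2 response minus the bone marrow response on the log2 scale, with 3 arrays in each of 4 groups. The cell types differ in origin, medium and growth factor, which cannot be told apart.

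Among genes that rose in bone marrow cells the difference was below 0 for the enzyme gene Ch25h (-6.17), Ifnb1 (-5.98), Tnfsf4 (-5.00), Cxcl11 (-4.97), Mx2 (-4.85), Gbp5 (-4.66), Ifit3b (-4.63), Mx1 (-4.45), Il1a (-4.43), Cd40 (-4.28), Cxcl9 (-4.04), Il10 (-3.64), Nos2 (-2.65), Saa3 (-2.33), Ccl5 (-2.17) and Wfdc17 (-2.12). It was above 0, so that MPI-2 rose more, for Cxcl10 (2.79), Cd14 (2.11), Il12b (0.98), Mmp13 (0.83) and Tnfaip3 (0.61). Cxcl10 lay near the top of the array scale in the bone marrow LPS arrays, and whether that limited its rise was not tested. Egr1, which did not pass in bone marrow cells, differed by 2.08. The MPI-2 means of Ch25h, Ifnb1, Tnfsf4, Cxcl11, Mx2, Ifit3b and Mx1 lay under the background level both without and with LPS. Il1a and Wfdc17 differed already without LPS, with mock means of 10.76 and 8.44 in MPI-2 against 5.63 and 5.77 in bone marrow cells. Their LPS means were 11.88 and 10.81 in MPI-2 and 11.18 and 10.26 in bone marrow cells.

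The 40 genes were picked for their large change in bone marrow cells, so the count and the sign of their differences follow in part from that choice.

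Among genes that fell in bone marrow cells the differences were 4.14 for Arrdc3, 3.93 for Hgf, 3.86 for Lhfpl2, 3.58 for Adgre5, 3.53 for Lpar6, 3.34 for H1f2, 3.22 for Ago4, 3.08 for Ivns1abp (at 1 of its disagreeing probe sets) and 2.79 for Vegfa. They were 2.71 for Got1, 2.47 for Rcbtb2, 2.46 for Cxcr4, 2.37 for Sesn1, 2.23 for Slc43a2, 2.20 for Prune1 and 2.08 for Cytip. The smallest were 1.94 for Arhgap25, 1.75 for Tmem104, 1.54 for Cerk, 1.54 for Scd2, 1.17 for Fos and 0.77 for Csf1r. Adgre5 and Ago4 lay under the background level in MPI-2 mock cells (means 2.96 and 2.89). A fall could hardly show there, so their differences do not compare measurable falls.

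Probe sets with no gene in the annotation also carried signal. Of 11799 tested, 325 were higher and 633 lower with LPS in bone marrow macrophages (limma, adjusted p under 0.05), and the largest rise was 3.94 on the log2 scale.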

How the results depend on the processing

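With the 6 bone marrow arrays alone 1321 genes rose, against 2053 with 12. Leaving out 1 bone marrow array at a time gave 1714 to 2346 rises and 2595 to 3216 falls. Leaving out 1 MPI-2 array, chosen after seeing the data, gave 1863 to 1917 and 2890 to 2914. The other settings gave at most 2404 rises and 2143 to 3183 falls. Counts of different responses ran from 995 to 1806 (higher in bone marrow cells) and from 1044 to 2020 (lower). With the replicate block 1958 rose and 3112 fell, and no named gene's call changed. With cyclic loess the split was 2404 to 2471.

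Of 267 named genes past the threshold, 265 stayed past it under all alternatives run, and Cd14 and Nfkbia were lost under both normalizations. Genes said to have risen or fallen had to pass with the bone marrow arrays alone too, so that alternative could lose none. The count of 265 therefore follows in part from the choice of genes. Over all genes, the fit on the bone marrow arrays alone gave 1321 rises against 2053 and 2143 falls against 3061. Signs turned only for genes not past the threshold. Aif1 changed by -0.0755 (cyclic loess), -0.0651 (quantile), -0.0196 (array weights), -0.0426 (without mock 1 and LPS 3 together) and between -0.0603 and 0.0717 with 1 array left out. Fcgr1 changed by -0.117 (quantile), and without mock 1 and LPS 3 together Egr1 changed by 0.0805 and Zfp36 by 0.0145. The cause was not tested. Of 2100 list counts under alternatives, 89 moved by over 1.5 times. Folds of genes near background are understated.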
